A study of Rattus norvegicus with 132 samples.

Results

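Drug-metabolizing enzymes of rat gut epithelium were followed in bulk RNA-seq. They are the cytochromes P450 of families Cyp1 to Cyp4, the UDP-glucuronosyltransferases of families Ugt1 and Ugt2, the sulfotransferases, and the glutathione S-transferases of the alpha, mu, pi, theta, omega and zeta classes. Members were chosen by gene symbol alone, with no expression value, and 93 of the 21837 genes in the count tables belong to them. Of the 93, 63 had enough counts to be tested in at least 1 fit and 30 in none, so that counts below speak of tested members only. The 30 include Cyp1a2 with 72 counts over all libraries, Cyp2e1 with 77 and Sult1a1 with 100, and Cyp2a1 stood at 0.

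The study holds 132 libraries in 22 groups of 6, each labelled as a biological replicate from a Sprague Dawley rat, an outbred stock. In each tissue, colon and jejunum, irradiated rats had received compound Kushen powder by mouth, water as its oral vehicle, compound Kushen injection into the peritoneum, the injected vehicle (0.25% Tween-80 with 25 mM HEPES), or no treatment, with tissue taken at day 4 or day 7. They were set against untreated, non-irradiated rats, which have no day. All irradiated groups share abdominal radiation in 5 fractions of 4 Gy over days 0 to 4, so that day 4 falls on the last day of radiation. Age, sex, dose of the preparations and the way the epithelium was isolated were not given in the sources used here. Kushen is the root of Sophora flavescens, used in Chinese herbal medicine, and some labels call the powder a pill.

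Cytochromes P450 are heme enzymes of the endoplasmic reticulum that insert oxygen into drugs, steroids and fatty acids (phase I). The transferases then attach glucuronic acid, sulfate or glutathione (phase II), which makes the products easier to excrete. In the gut these enzymes meet swallowed drugs and plant compounds before the liver does, mostly in the differentiated absorptive cells of the villus or surface. Many are switched on by ligand-sensing transcription factors: the aryl hydrocarbon receptor for Cyp1, the pregnane X receptor for Cyp3a, Ppara for Cyp4a and Nfe2l2 for glutathione S-transferases.

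Depth was even, at 17.2 to 19.8 M counts in a library (median 19.14 M). Levels are given as CPM, counts per 1000000 of a library's counts scaled with TMM factors over all libraries, as the lowest, median and highest of the 6 libraries of a group. CPM is not corrected for gene length, so levels were compared between groups and not between genes. A member was called where edgeR's quasi-likelihood F test gave an adjusted p (Benjamini-Hochberg, over all genes tested) under 0.05. Fold changes are log2 values of that fit with their standard error (SE), and a positive value means higher in the group named first. In bulk tissue, fewer cells of a type and less RNA per cell cannot be told apart. Reads of close relatives, such as the Cyp2d, Cyp3a, Cyp4a and Cyp4f genes, Cyp2b1 and Cyp2b2, Gsta2 and Gsta5, or Sult1c2 and Sult1c2a, may have been split between them by the counting, and Ugt1 transcripts share exons, so values of single members of these sets are uncertain.

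The sum of the mitochondrially encoded genes, a sign of RNA composition, moved with irradiation. In colon it averaged 9.16% of counts at day 4 and 3.95% at day 7 in irradiated untreated rats, against 12.3% in non-irradiated rats. In jejunum it averaged 12.7% at day 4 and 5.39% at day 7, against 12.3% without irradiation. Of the 6 listed colonocyte markers, 5 were in the tables, and their summed level had a median of 8426 CPM (1860 to 11037) at day 4 and 3840 CPM (1094 to 7322) at day 7 in irradiated colon, against 19847 CPM (18282 to 22770) in non-irradiated colon. Of the 9 enterocyte markers, 8 were in the tables, with a median sum of 111133 CPM (52755 to 197375) at day 4 and 49621 CPM (17220 to 84364) at day 7 in irradiated jejunum, against 110280 CPM (100725 to 117853) in non-irradiated jejunum. Goblet cell markers in jejunum, 6 of 7 in the tables, had a median sum of 642 CPM (303 to 984) at day 4 and 1601 CPM (778 to 2515) at day 7, against 4834 CPM (863 to 9215), with 5 and 4 of 6 called lower. The 6 crypt and proliferation markers there summed to a median of 88.2 CPM (38.5 to 182) at day 4 and 278 CPM (202 to 636) at day 7, against 46.3 CPM (33.1 to 89.2), with 2 called higher and 1 lower at day 4 and 5 higher at day 7. The 4 Paneth markers, with Defa5 at 0, summed to a median of 4870 CPM (464 to 9202) at day 4 and 1923 CPM (815 to 7492) at day 7, against 439 CPM (170 to 3240), and 1 of 3 tested was called, higher at day 4. All 4 T cell markers tested were called lower in irradiated jejunum on both days. All 4 neutrophil markers were called higher in irradiated colon on both days, with a median sum of 35.3 CPM (6.48 to 96) at day 4 and 23.8 CPM (17.8 to 38.2) at day 7, against 0.541 CPM (0.207 to 0.926). All 5 fibroblast markers were likewise called higher in irradiated colon on both days, with a median sum of 47.2 CPM (24.4 to 84.3) at day 4 and 18.9 CPM (11.1 to 210) at day 7, against 8.71 CPM (4.08 to 10.5). Crypt and proliferation markers in colon had a median sum of 96.4 CPM (55.4 to 141) without irradiation. It was 144 CPM (116 to 199) at day 4 and 344 CPM (253 to 411) at day 7. For the 5 enteroendocrine markers in colon it was 1428 CPM (1159 to 1723) without irradiation. After irradiation it was 1181 CPM (560 to 1483) at day 4 and 351 CPM (268 to 665) at day 7. Hepatocyte markers, which would mark liver RNA, summed to at most 10.2 CPM in non-irradiated colon and 3.34 CPM in non-irradiated jejunum. Of the 5 listed pancreas markers, Prss1, Cpa1, Pnlip and Amy2a3 stood at 0 there, which leaves out Cela1. These checks cover non-irradiated tissue only. The part of these shifts in the results that follow was not tested, apart from the fit with the mitochondrial share as a covariate.

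Promoters of 3 members on which results turn are shown because the factors that bind the marked motifs are known to drive these genes or their relatives. Each is the 250 bases before the start site on the gene's strand, from RefSeq on build GRCr8, which is not the build of the counts. Capitals mark GCGTG or its reverse complement (the core of the aryl hydrocarbon receptor's element), TGACNNNGC (the core of the antioxidant response element) or GTTAATNATT (an HNF1 element), searched on both strands. Cyp1b1 lies at chr6:21094315-21094564 on the plus strand and holds GCGTG in both orientations. Gstp1 lies at chr1:210769706-210769955 on the minus strand and holds 1 GCGTG match and 1 antioxidant match. Ugt1a3 lies at chr9:96227884-96228133 on the plus strand and holds 1 GCGTG match and 1 HNF1 match.
Cyp1b1: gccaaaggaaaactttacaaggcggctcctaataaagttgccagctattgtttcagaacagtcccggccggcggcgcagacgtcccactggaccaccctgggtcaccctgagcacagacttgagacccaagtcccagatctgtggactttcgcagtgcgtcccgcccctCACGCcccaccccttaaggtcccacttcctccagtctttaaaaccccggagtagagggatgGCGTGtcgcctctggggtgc
Gstp1: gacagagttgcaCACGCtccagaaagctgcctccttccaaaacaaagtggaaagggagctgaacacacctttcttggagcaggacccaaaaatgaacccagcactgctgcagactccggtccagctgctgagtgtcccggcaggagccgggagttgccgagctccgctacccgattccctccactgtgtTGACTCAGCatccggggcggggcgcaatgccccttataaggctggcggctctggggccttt
Ugt1a3: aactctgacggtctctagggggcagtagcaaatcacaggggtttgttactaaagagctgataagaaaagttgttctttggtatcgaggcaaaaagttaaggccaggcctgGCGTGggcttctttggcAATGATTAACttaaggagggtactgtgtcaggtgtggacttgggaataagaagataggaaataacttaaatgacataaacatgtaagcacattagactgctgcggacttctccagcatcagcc
Of 27457 rat promoter windows of this length, 27.2% held GCGTG, 10.2% the antioxidant core and 0.331% the HNF1 element. Among the 81 members with a window, 19 held GCGTG, 6 the antioxidant core and 2 the HNF1 element. A match describes letters, not binding.

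The first comparison asks what the jejunum carries against the colon before radiation. More members were higher than lower in jejunum: 36 of 63 members were called higher in non-irradiated jejunum and 13 lower, together 49. Of all genes tested, 29.9% were higher and 41.6% lower, 71.5% in all. The members' median log2 difference was 0.98, against -0.21 over all genes tested. Library series 1 alone gave 44 calls and series 2 alone 45. Over all genes they gave 8955 and 8278, against 9823 with both series. By family, 3 of 3 Cyp3, 8 of 15 Cyp2, 8 of 12 Cyp4, 4 of 5 Ugt2 and 4 of 6 Gsta members were higher in jejunum, as were 2 of 2 Cyp1, 1 of 1 Ugt1, 2 of 6 Sult, 2 of 6 Gstm and 2 of 7 other Gst members. Lower in jejunum were 4 Cyp2, 3 Cyp4, 1 Ugt2, 2 Sult, 2 Gsta and 1 Gstm members. All 8 enterocyte markers tested were also called higher in jejunum.

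Cyp3a genes hydroxylate a large share of swallowed drugs and steroids. Cyp3a18 had 440, 565 and 663 CPM in jejunum, against 1.77, 2.58 and 5.59 CPM in colon, a log2 difference of 7.49 (SE 0.81, adjusted p = 6.61e-13). For Cyp3a9 the jejunum libraries had 3376, 4100 and 5027 CPM, against 230, 277 and 335 CPM in colon, a difference of 3.79 (SE 0.36, adjusted p = 4.3e-15). Every jejunum library was above every colon library for both genes. Cyp3a62 differed by 3.08 (SE 0.39, adjusted p = 1.25e-10). Cyp1a1, the classic aryl hydrocarbon receptor target, had 127, 421 and 821 CPM in jejunum, against 3.25, 7.1 and 11.6 CPM in colon, a difference of 5.96 (SE 0.82, adjusted p = 1.86e-09). Its relative Cyp1b1 was low in both tissues, with 0.151, 0.438 and 1.07 CPM in jejunum and 0, 0.0239 and 0.0975 CPM in colon, a difference of 3.71 (SE 1.37, adjusted p = 0.013). Cyp2b1, a phenobarbital-inducible enzyme of the liver, differed by 5.76 (SE 1, adjusted p = 5.78e-07) and Cyp2s1 by 6.36 (SE 0.97, adjusted p = 2.73e-08). The fatty acid omega-hydroxylases Cyp4a3 and Cyp4a1 differed by 7.06 (SE 0.69, adjusted p = 3.66e-13) and 7 (SE 0.67, adjusted p = 4.7e-15).

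Some P450s ran the other way. Cyp2c24 had 8.61, 23.9 and 60.1 CPM in jejunum, against 769, 971 and 1355 CPM in colon, a log2 difference of -5.1 (SE 0.75, adjusted p = 1.03e-08). All jejunum libraries were far below all colon libraries. Cyp2w1, in humans an orphan P450 of the fetal gut and of colon tumours, had 0 counts over the 6 jejunum libraries and 1368 counts over the 6 colon libraries, which makes it at least 279-fold lower in jejunum against a floor of 3 counts over the group. Cyp4x1 had 0 counts in jejunum and 301 in colon, at least 61.5-fold lower. Cyp2c23, an arachidonic acid epoxygenase of the rat kidney, had 86 counts in jejunum and 1 in colon, a ratio of 140 with a 95% counting interval of 24.5 to 5609. Cyp4a8 had 1 count in jejunum and 25 in colon, 15.3-fold lower with an interval of 2.51 to 629. Such floors and intervals cover counting error only. Cyp4f40 differed by -0.99 (SE 0.45, adjusted p = 0.0431), and it lost its call in the fits without replicate 1, 2, 4 or 5 (adjusted p 0.0543 to 0.14), with DESeq2, with size factors, with no filter and with no series term.

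Among the glucuronosyltransferases, Ugt2 genes that handle steroids and bile acids were at or near 0 in colon. Ugt2a3 had 10465 counts in jejunum and 0 in colon, at least 5694-fold higher. Ugt2b15 had 17844 counts in jejunum and 3 in colon, a ratio of 9709 (95% counting interval 3322 to 47086). For Ugt2b7 the counts were 576 in jejunum and 3 in colon, a ratio of 313 (107 to 1524). Ugt2b35 had 71.3, 132 and 162 CPM in jejunum, against 0.0478, 0.0736 and 0.138 CPM in colon. Ugt2b10 was the exception, with 0, 0.15 and 0.26 CPM in jejunum, against 3, 5.16 and 15.2 CPM in colon, a log2 difference of -5.8 (SE 0.68, adjusted p = 1e-11). Ugt1a3, the only Ugt1 row in the table, had 2256, 2903 and 4782 CPM in jejunum, against 1344, 1465 and 1776 CPM in colon, a difference of 0.98 (SE 0.24, adjusted p = 0.000285).

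Among the sulfotransferases, Sult2b1, which sulfates cholesterol, differed by 2.32 (SE 0.27, adjusted p = 6.89e-12) and Sult1b1, which acts on thyroid hormone and phenols, by 1.46 (SE 0.19, adjusted p = 1.79e-10), both higher in jejunum. Sult1c2 was lower in jejunum (-2.68, SE 0.94, adjusted p = 0.0087). Alpha-class glutathione S-transferases were split. Gsta5 had 1026, 1403 and 2187 CPM in jejunum, against 0.43, 1.2 and 2.53 CPM in colon, and Gsta2 differed by 9.2 (SE 0.55, adjusted p = 2.7e-24) in the same direction. Gsta1 ran the other way, with 0, 0.219 and 0.412 CPM in jejunum and 0.362, 1.05 and 2.58 CPM in colon, a difference of -2.74 (SE 0.58, adjusted p = 3.02e-05). In the mu class, Gstm4 was higher in jejunum (1.24, SE 0.16, adjusted p = 1.87e-10), as was Gstm3l (0.81, SE 0.2, adjusted p = 0.000248), and Gstm2 was lower (-1.78, SE 0.32, adjusted p = 1.23e-06). Gstt3 of the theta class differed by 1.63 (SE 0.31, adjusted p = 4.33e-06). Gsto1 of the omega class differed by 0.28 (SE 0.13, adjusted p = 0.0381), and its call was lost without replicate 4, 5 or 6 (adjusted p 0.0611 to 0.116) and with no series term. Gstp1, the pi-class enzyme, was not called (-0.31, SE 0.2, adjusted p = 0.164).

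**Figure D1:**
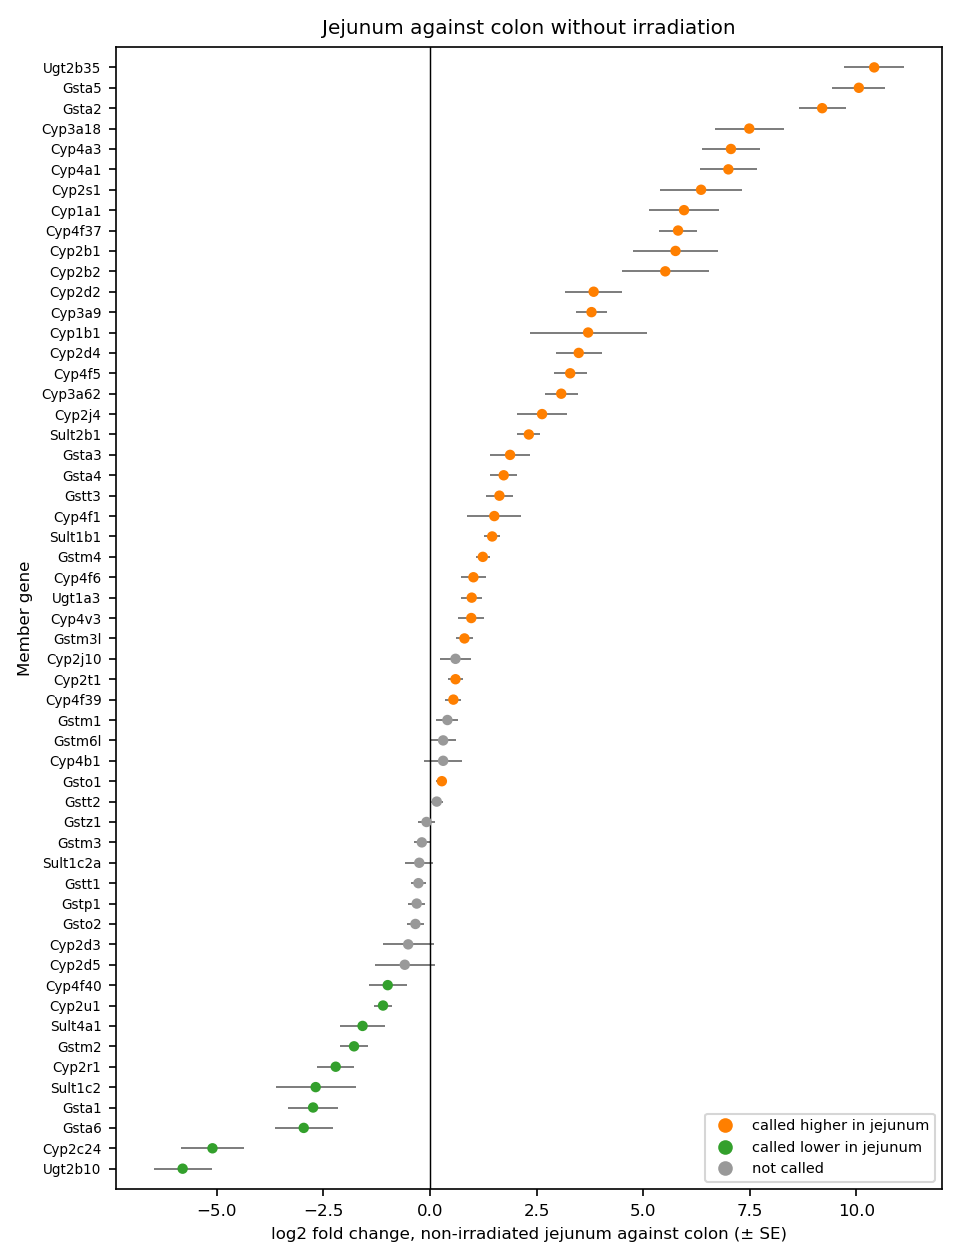
Log2 fold change between non-irradiated jejunum and non-irradiated colon (x axis, points with ± SE) for 55 of the 63 tested members (y axis), leaving out 8 with 3 counts or fewer over a tissue. Ugt2b35, Gsta5 and Gsta2 stand at the jejunum end, and Ugt2b10 and Cyp2c24 at the colon end.

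The next comparisons ask what radiation changed in rats that received no treatment. In colon at day 4, 25 of 55 tested members were called, 9 higher and 16 lower, against a background of 46.9% of all genes tested (24.6% higher and 22.3% lower). At day 7 the colon count was 39 of 55, 9 higher and 30 lower, against a background of 63.6% (32.9% higher and 30.8% lower). The members' median log2 fold change in colon was -0.31 at day 4 and -0.65 at day 7, beside 0.02 over all genes on both days. In jejunum, 25 of 58 were called at day 4, 14 higher and 11 lower (background 44%, 25% higher and 18.9% lower), and 33 of 58 at day 7, 13 higher and 20 lower (background 58.8%, 31.4% higher and 27.4% lower). The jejunum medians were -0.24 and -0.35, beside 0.05 and 0.02 over all genes. The shares of members called lay near the background in all 4 comparisons, while in colon at day 7 54.5% of members were lower, beside 30.8% of all genes tested.

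Libraries come in series by the first digit of their name, with replicates 1 to 3 in series 1 and 4 to 6 in series 2, and series was a term in the fit. In series 1 alone, 15 members were called in colon at day 4, 33 in colon at day 7, 5 in jejunum at day 4 and 10 in jejunum at day 7. In series 2 alone the counts were 22, 28, 33 and 34. Over all genes, in the same order, series 1 alone called 2115, 6988, 1880 and 3303 and series 2 alone 5289, 6078, 5495 and 7443. With both series the calls over all genes were 6242, 8469, 5495 and 7352. With the mitochondrial share of each library as a covariate, member calls in colon fell to 15 at day 4 (9 higher and 6 lower), with 2847 over all genes. They fell to 3 at day 7, where that share separated irradiated from non-irradiated libraries and the calls over all genes fell to 272, against 8469 without it. The 3 were Cyp2w1, Cyp4b1 and Gstm6l, so that the other colon calls at day 7 named in what follows were not called in that fit, whether or not this is repeated there.

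**Figure D2:**
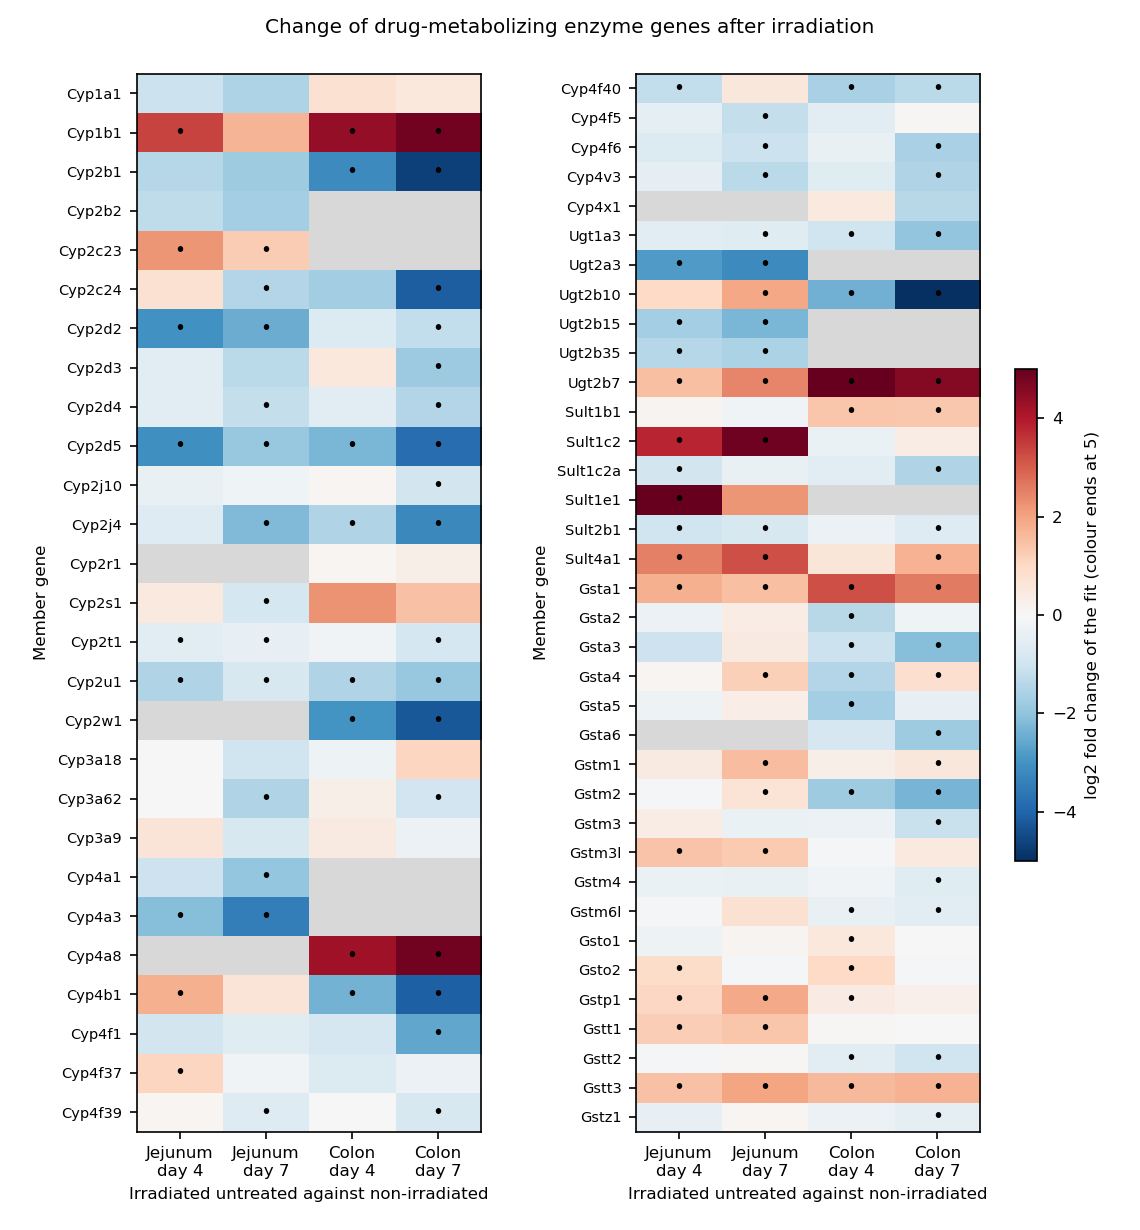
Log2 fold change of the 63 tested members (rows) in irradiated untreated against non-irradiated rats, for jejunum at days 4 and 7 and colon at days 4 and 7 (columns). Red is higher and blue lower after irradiation, the colour scale ends at 5, a dot marks a call and grey a member not tested in that tissue. Cyp1b1 and Ugt2b7 are red in all columns, and Cyp2w1, Cyp2b1 and Ugt2b10 are deep blue in colon at day 7.

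Cyp1 genes, the aryl hydrocarbon receptor's targets, split. Cyp1b1 had 0.174, 0.75 and 1.71 CPM at day 4 and 0.0412, 0.34 and 3.58 CPM at day 7 in irradiated colon, against 0, 0.0239 and 0.0975 CPM in non-irradiated colon. It rose at day 4 (4.38, SE 1.16, adjusted p = 0.00245) and day 7 (4.84, SE 1.15, adjusted p = 0.000451), although its level stayed low throughout. The size rested partly on single libraries: without replicate 4 the day 4 value was 3.79, without replicate 1 it was 5.12, and without replicate 2 the day 7 value was 3.76. Jejunum had 0.375, 2.31 and 13.5 CPM at day 4, against 0.151, 0.438 and 1.07 CPM without irradiation, a rise of 3.39 (SE 0.95, adjusted p = 0.00423), which was 2.48 without replicate 1. At day 7 Cyp1b1 was not called in jejunum (1.69, SE 0.94, adjusted p = 0.116).

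Cyp1a1 itself was not called in either tissue. In jejunum it had 23.7, 133 and 792 CPM at day 4 and 54.2, 131 and 408 CPM at day 7 in irradiated rats, against 127, 421 and 821 CPM in non-irradiated rats. The fold change was -1.09 (SE 0.73, adjusted p = 0.226) at day 4 and -1.56 (SE 0.7, adjusted p = 0.0536) at day 7, with groups that overlapped. At day 7 it passed the threshold with DESeq2 (-1.57, adjusted p = 0.0269), in the 2 groups alone (-1.47, adjusted p = 0.0101), in series 2 alone (-1.7, adjusted p = 0.0243) and without replicate 5 (-2.23, adjusted p = 0.0225). At day 4 it passed in series 2 alone (-3.62, adjusted p = 0.000426) and without replicate 3 (-1.9, adjusted p = 0.039). In colon the values were 0.78 (SE 0.63, adjusted p = 0.317) and 0.54 (SE 0.63, adjusted p = 0.462).

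Cyp2 is the family with the most members, and in colon none was called higher: 5 of 13 tested members fell at day 4 and 11 of 13 at day 7. Cyp2c24 had 24.7, 359 and 606 CPM at day 4 and 15.8, 54.8 and 132 CPM at day 7 in irradiated colon, against 769, 971 and 1355 CPM in non-irradiated colon. All irradiated libraries were below all non-irradiated ones on both days, but the day 4 value was not called (-1.73, SE 0.77, adjusted p = 0.0632), and the day 7 value was (-4.12, SE 0.84, adjusted p = 6.64e-05). Cyp2w1 had 0.27, 1.26 and 2.96 CPM at day 4 and 0.387, 0.468 and 0.956 CPM at day 7, against 7.08, 10.2 and 14.7 CPM. It fell with no overlap at day 4 (-2.98, SE 0.37, adjusted p = 8.91e-08) and day 7 (-4.25, SE 0.39, adjusted p = 9.96e-11).

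Cyp2j4, of a subfamily that makes epoxides of arachidonic acid, had 41.6, 96.3 and 122 CPM at day 4 and 17.2, 21.4 and 55.4 CPM at day 7 in irradiated colon, against 222, 236 and 295 CPM. The groups did not overlap at day 4 (-1.5, SE 0.39, adjusted p = 0.002) or day 7 (-3.24, SE 0.41, adjusted p = 3.28e-08). Cyp2b1 had 0.09, 1.35 and 3.9 CPM at day 4 and 0.0412, 0.0462 and 2.04 CPM at day 7, against 4.38, 11.3 and 19.4 CPM. Every irradiated colon library lay under the lowest non-irradiated one, with changes of -3.17 (SE 0.84, adjusted p = 0.00236) and -4.65 (SE 0.91, adjusted p = 4.2e-05); without replicate 1 the day 7 value was -5.76 and without replicate 2 it was -5.28. The day 4 value was not called in series 1 alone (-1.16, adjusted p = 0.297) or with the mitochondrial covariate (-2.13, adjusted p = 0.125), and it was -4.37 in series 2 alone. Cyp2d5, of the subfamily that oxidizes basic amine drugs, fell on both days (-2.27, SE 0.7, adjusted p = 0.00877, and -3.8, SE 0.75, adjusted p = 4.3e-05). Cyp2u1, a fatty acid hydroxylase, changed by -1.49 (SE 0.2, adjusted p = 4.31e-07) and -1.88 (SE 0.2, adjusted p = 1.25e-09).

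In jejunum 1 Cyp2 member was higher and 4 of 13 lower at day 4, and 1 was higher and 8 lower at day 7. Cyp2d2 had 1.1, 2.88 and 22.9 CPM at day 4 and 0.734, 9.07 and 29.1 CPM at day 7 in irradiated jejunum, against 34, 42 and 48.6 CPM in non-irradiated jejunum. The irradiated libraries were all lower, with changes of -3.03 (SE 0.74, adjusted p = 0.00136) and -2.49 (SE 0.71, adjusted p = 0.0035). Cyp2d5 changed by -3.05 (SE 0.8, adjusted p = 0.00271) at day 4 and -1.91 (SE 0.76, adjusted p = 0.031) at day 7. Cyp2j4 had 54.2, 270 and 1191 CPM at day 7, against 1476, 1565 and 1837 CPM, with no overlap (-2.22, SE 0.7, adjusted p = 0.00705, or -2.98 without replicate 1). The member that rose was Cyp2c23, by 2.22 at day 4 (SE 0.54, adjusted p = 0.00125) and 1.28 at day 7 (SE 0.53, adjusted p = 0.0375). Its day 7 call was lost without replicate 1, 2, 3 or 4 (adjusted p 0.0705 to 0.093) and with the mitochondrial covariate. Cyp2b1 was not called in jejunum, with 29.6, 211 and 1046 CPM at day 4 and 18.3, 207 and 801 CPM at day 7, against 562, 666 and 1241 CPM. Its values were -1.43 (SE 0.95, adjusted p = 0.221) and -1.76 (SE 0.97, adjusted p = 0.114), and the day 7 value passed in the 2 groups alone (adjusted p = 0.025) and without replicate 1 (adjusted p = 0.0367).

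Cyp3a, the main drug-oxidizing subfamily of the gut, was not called at day 4 in either tissue. Cyp3a9 had 2109, 5603 and 13431 CPM at day 4 and 1153, 2063 and 5295 CPM at day 7 in irradiated jejunum, against 3376, 4100 and 5027 CPM in non-irradiated jejunum. The irradiated libraries spread to both sides of the non-irradiated ones at day 4 (0.65, SE 0.4, adjusted p = 0.183) and lay below them in 5 of 6 libraries at day 7 (-0.79, SE 0.4, adjusted p = 0.088). The day 7 value passed in series 2 alone (-1.13, adjusted p = 0.0145), with the mitochondrial covariate (-1.03, adjusted p = 0.0453), in the 2 groups alone (-0.84, adjusted p = 0.0255) and without replicate 1 (-1.15, adjusted p = 0.0164). In colon Cyp3a9 had 274, 351 and 535 CPM at day 4 and 145, 224 and 353 CPM at day 7, against 230, 277 and 335 CPM. Those groups overlapped, with values of 0.44 (SE 0.21, adjusted p = 0.0789) and -0.3 (SE 0.21, adjusted p = 0.208), and the day 4 value passed in the 2 groups alone (0.45, adjusted p = 0.0237) and without replicate 6 (0.52, adjusted p = 0.0222).

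Cyp3a62 was the Cyp3a member that fell, at day 7 in both tissues. It had 273, 472 and 1200 CPM in irradiated jejunum, against 1164, 1548 and 1955 CPM in non-irradiated jejunum (-1.5, SE 0.41, adjusted p = 0.00227). Irradiated colon had 54.9, 91.1 and 119 CPM, against 138, 166 and 231 CPM (-0.97, SE 0.31, adjusted p = 0.00607), with no overlap. The colon value turned to 1 with the mitochondrial covariate. At day 4 Cyp3a62 had 0.28 (SE 0.3, adjusted p = 0.467) in colon, passing in series 1 alone (0.94, adjusted p = 0.0244) and with the mitochondrial covariate (1.02, adjusted p = 0.02), and 0.01 (SE 0.4, adjusted p = 0.984) in jejunum. Cyp3a18 had 66.3, 264 and 660 CPM at day 7 in irradiated jejunum, against 440, 565 and 663 CPM, and was not called (-0.98, SE 0.49, adjusted p = 0.0836).

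Cyp4 enzymes hydroxylate the end of fatty acid chains and inactivate leukotrienes. In colon 1 of 10 tested members was higher and 2 lower at day 4, and 1 was higher and 6 lower at day 7. Cyp4b1, which acts on fatty acids and on some plant toxins, had 9.81, 41.9 and 74.8 CPM at day 4 and 8.69, 9.22 and 22.6 CPM at day 7 in irradiated colon, against 138, 180 and 237 CPM. It was far below the non-irradiated libraries on both days (-2.35, SE 0.41, adjusted p = 2.69e-05, and -4.1, SE 0.44, adjusted p = 1.5e-09). In jejunum Cyp4b1 ran the other way at day 4, with 278, 771 and 1401 CPM, against 85.1, 185 and 570 CPM, a rise of 1.79 (SE 0.51, adjusted p = 0.00507) with partly overlapping groups. Over 15 alternative fits this rise ranged from 0.63 to 3.26 and lost its call in 1. At day 7 jejunum had 148, 440 and 658 CPM and was not called (0.66, SE 0.49, adjusted p = 0.24).

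Cyp4f1 had 21.5, 294 and 488 CPM at day 4 and 11, 70.3 and 151 CPM at day 7 in irradiated colon, against 351, 444 and 535 CPM. The day 4 groups overlapped (-0.83, SE 0.68, adjusted p = 0.321), and the day 7 groups did not (-2.61, SE 0.7, adjusted p = 0.00167). In jejunum Cyp4f1 was not called at day 4 (-0.92, SE 0.56, adjusted p = 0.182) or day 7 (-0.59, SE 0.56, adjusted p = 0.361). Cyp4a8 was the Cyp4 member that rose in colon, with 0.63, 2.66 and 12 CPM at day 4 and 0.261, 7.05 and 8.39 CPM at day 7, against 0.0922, 0.223 and 0.31 CPM. The changes were 4.23 (SE 0.72, adjusted p = 1.88e-05), or 3.56 without replicate 4, and 4.81 (SE 0.73, adjusted p = 7.93e-07). In jejunum 2 of 10 Cyp4 members rose and 2 fell at day 4, and 6 fell and none rose at day 7. Cyp4a3 had 0.413, 1.58 and 5.11 CPM at day 4 and 0.0863, 0.568 and 2.25 CPM at day 7 in irradiated jejunum, against 5.63, 6.97 and 10.4 CPM. No irradiated library reached the non-irradiated range (-2.12, SE 0.54, adjusted p = 0.0019, and -3.45, SE 0.57, adjusted p = 6.53e-06, or -4.09 at day 7 without replicate 1). Cyp4a1 fell at day 7 (-1.93, SE 0.56, adjusted p = 0.00359).

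Cyp4f40 fell at day 4 in colon (-1.61, SE 0.47, adjusted p = 0.005) and in jejunum (-1.25, SE 0.42, adjusted p = 0.0159), where the call was lost without replicate 6 (adjusted p = 0.085). In colon it was also lost with the mitochondrial covariate (-1.13, adjusted p = 0.156). Cyp4f37 rose in jejunum at day 4 (1.08, SE 0.37, adjusted p = 0.0183) and lost its call without replicate 4 (adjusted p = 0.0534) or replicate 5 (adjusted p = 0.0564).

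Of 3 glucuronosyltransferases tested in colon, 2 fell and 1 rose on each day. In jejunum 3 of 6 fell and 1 rose at day 4, and 4 fell and 2 rose at day 7. Ugt1a3, of a family that conjugates phenols and bilirubin, had 418, 800 and 1094 CPM at day 4 and 306, 377 and 578 CPM at day 7 in irradiated colon, against 1344, 1465 and 1776 CPM. Every irradiated library was below every non-irradiated one (-1.01, SE 0.23, adjusted p = 0.000538, and -1.96, SE 0.23, adjusted p = 8.56e-09), and both calls were lost with the mitochondrial covariate (-0.66, adjusted p = 0.0719, and -1.08, adjusted p = 0.224). In jejunum Ugt1a3 had 1168, 2139 and 2799 CPM at day 7, against 2256, 2903 and 4782 CPM (-0.62, SE 0.25, adjusted p = 0.0354), and lost its call without replicate 5 (adjusted p = 0.226) or replicate 6 (adjusted p = 0.155). At day 4 it was not called there (-0.55, SE 0.25, adjusted p = 0.0754).

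In jejunum 3 of 5 Ugt2 members fell at both times, Ugt2a3, Ugt2b15 and Ugt2b35. Ugt2a3 had 2.53, 9.52 and 59.2 CPM at day 4 and 2.2, 13.7 and 56.3 CPM at day 7 in irradiated jejunum, against 98.3, 130 and 218 CPM. Groups did not overlap (-2.83, SE 0.84, adjusted p = 0.00664, and -3.19, SE 0.85, adjusted p = 0.00173, or -3.93 at day 7 without replicate 1). Ugt2b15, in humans a conjugator of androgens, had 14.9, 54.1 and 159 CPM at day 4 and 19.6, 32 and 94.6 CPM at day 7, against 168, 259 and 282 CPM. Again all irradiated libraries were lower (-1.7, SE 0.54, adjusted p = 0.011, and -2.29, SE 0.55, adjusted p = 0.000672). Ugt2b35 changed by -1.41 (SE 0.49, adjusted p = 0.0205) and -1.6 (SE 0.49, adjusted p = 0.00601).

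Ugt2b7 went the opposite way from those genes. It had 9.84, 18.5 and 35.4 CPM at day 4 and 20.3, 36 and 87.6 CPM at day 7 in irradiated jejunum, against 4.76, 7.92 and 11 CPM in non-irradiated jejunum. The day 4 range overlapped the non-irradiated one and the day 7 range did not (1.52, SE 0.41, adjusted p = 0.0035, and 2.44, SE 0.42, adjusted p = 1.18e-05). In colon it had 156 counts over the irradiated libraries at day 4 and 109 at day 7, against 3 over the non-irradiated ones. Those are ratios of 49 (95% counting interval 16.4 to 240) and 31.1 (10.4 to 153), both called. Ugt2b10 fell in colon to 0, 1.35 and 3.35 CPM at day 4 and 0, 0.163 and 0.223 CPM at day 7, against 3, 5.16 and 15.2 CPM (-2.41, SE 0.61, adjusted p = 0.00164, and -5.59, SE 0.73, adjusted p = 4.98e-08). Its calls in colon were lost with the mitochondrial covariate (adjusted p = 0.334 and 0.446). In jejunum Ugt2b10 rose at day 7 (1.93, SE 0.52, adjusted p = 0.00186).

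Sulfotransferases moved in both directions. In colon 1 of 5 rose and none fell at day 4, and 2 rose and 2 fell at day 7, while in jejunum 3 of 6 rose and 2 fell at day 4, and 2 rose and 1 fell at day 7. Sult1b1 had 189, 293 and 462 CPM at day 4 and 244, 286 and 435 CPM at day 7 in irradiated colon, against 107, 116 and 141 CPM. All irradiated colon libraries were higher (1.38, SE 0.21, adjusted p = 2.55e-06, and 1.36, SE 0.2, adjusted p = 6.64e-07), with the day 7 call lost under the mitochondrial covariate (0.78, adjusted p = 0.38). Jejunum showed no such call for Sult1b1 (0.14, SE 0.15, adjusted p = 0.464, and -0.17, SE 0.15, adjusted p = 0.343). Sult2b1 had 129, 208 and 415 CPM at day 4 and 159, 262 and 418 CPM at day 7 in irradiated jejunum, against 338, 503 and 633 CPM. It fell there (-1.01, SE 0.29, adjusted p = 0.00486, and -0.82, SE 0.29, adjusted p = 0.0143), with the day 7 call lost without replicate 6 (adjusted p = 0.0503). In colon Sult2b1 fell at day 7 (-0.65, SE 0.22, adjusted p = 0.00944), with no call at day 4 (-0.28, SE 0.22, adjusted p = 0.297).

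Sult1c2 had 0.771, 3.46 and 7.95 CPM at day 4 and 0.211, 9.53 and 14.3 CPM at day 7 in irradiated jejunum, against 0, 0.0742 and 1.4 CPM. It rose (3.82, SE 0.79, adjusted p = 0.000257, and 4.86, SE 0.79, adjusted p = 5.1e-06), while the lowest irradiated library of each day lay within the non-irradiated range, and without replicate 6 the values were 5.65 and 6.51. Sult1e1, the oestrogen sulfotransferase, had 132 counts over the irradiated jejunum libraries at day 4 and 2 over the non-irradiated ones, a ratio of 62.1 (95% counting interval 16.9 to 518, adjusted p = 0.000132). Per library it had 0, 0.551 and 5.71 CPM at day 4, with most of the counts in 2 libraries, and at day 7 it was not called (16 counts, a ratio of 5.51 with an interval of 1.3 to 49.4, adjusted p = 0.129). Sult4a1, known from neurons, rose in jejunum at day 7 (3.21, SE 0.57, adjusted p = 1.56e-05) and in colon at day 7 (1.73, SE 0.39, adjusted p = 0.000205). Sult1c2a fell in jejunum at day 4 (-0.9, SE 0.22, adjusted p = 0.00139) and in colon at day 7 (-1.49, SE 0.41, adjusted p = 0.00209), where the value was 0.01 with the mitochondrial covariate.

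In jejunum no glutathione S-transferase was called lower on either day. Of 7 members of the pi, theta, omega and zeta classes 4 rose and none fell at day 4, and 3 rose and none fell at day 7, while in the mu class 1 of 6 rose at day 4 and 3 of 6 at day 7 with none lower. Gstp1, which conjugates electrophiles and is widespread in epithelia, had 172, 672 and 1078 CPM at day 4 and 627, 1390 and 1469 CPM at day 7 in irradiated jejunum, against 227, 329 and 530 CPM. The day 7 groups did not overlap (1.9, SE 0.25, adjusted p = 2.47e-07) and the day 4 groups did (1.02, SE 0.25, adjusted p = 0.00122). In colon Gstp1 had 402, 510 and 704 CPM at day 4, against 331, 398 and 441 CPM (0.42, SE 0.15, adjusted p = 0.0192), a call that was lost without replicate 6 (0.32, adjusted p = 0.0855) and under the mitochondrial covariate (adjusted p = 0.285). At day 7 it was not called there (0.26, SE 0.15, adjusted p = 0.125), though it passed in the 2 groups alone (adjusted p = 0.0258).

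Gstt3, a theta-class enzyme, rose in both tissues at both days. It had 87.2, 128 and 237 CPM at day 4 and 91.2, 200 and 324 CPM at day 7 in irradiated jejunum, against 31.9, 47.8 and 87.1 CPM (1.46, SE 0.31, adjusted p = 0.000349, and 1.96, SE 0.32, adjusted p = 4.16e-06). Irradiated colon had 30.9, 45.6 and 86.1 CPM at day 4 and 43.9, 55.8 and 61.8 CPM at day 7, against 9.66, 16.5 and 27.6 CPM. No irradiated colon or jejunum library lay within the non-irradiated range (colon 1.63, SE 0.31, adjusted p = 7.13e-05, and 1.72, SE 0.31, adjusted p = 1.07e-05, the second lost under the mitochondrial covariate with 0.53 and adjusted p = 0.724). Gstt1 rose in jejunum (1.23, SE 0.22, adjusted p = 4.33e-05, and 1.4, SE 0.22, adjusted p = 2.99e-06). Gstt2 fell in colon (-0.54, SE 0.14, adjusted p = 0.00166, and -1, SE 0.14, adjusted p = 1.42e-07) and Gsto2 rose there at day 4 (1.01, SE 0.18, adjusted p = 4.49e-05). Gstz1, the maleylacetoacetate isomerase of tyrosine breakdown, fell in colon at day 7 (-0.45, SE 0.13, adjusted p = 0.00419).

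In colon no mu-class member rose and 2 of 6 fell at day 4, and 1 rose and 4 fell at day 7. Gstm2 had 0.855, 4.9 and 6.88 CPM at day 4 and 1.53, 3.49 and 4.65 CPM at day 7 in irradiated colon, against 13.3, 15.2 and 18.7 CPM. It was lower in every irradiated colon library (-1.79, SE 0.35, adjusted p = 0.000102, and -2.33, SE 0.35, adjusted p = 8.33e-07), but higher in jejunum at day 7 (0.7, SE 0.28, adjusted p = 0.0298). Gstm3l rose in jejunum to 35.1, 53.2 and 64.8 CPM at day 4 and 35.2, 49.5 and 58.2 CPM at day 7, against 10.5, 21.7 and 25.1 CPM, with no overlap (1.43, SE 0.15, adjusted p = 9.12e-09, and 1.3, SE 0.15, adjusted p = 2.54e-08). Gstm1 had 15, 25.4 and 34 CPM in irradiated jejunum at day 7, against 2.94, 8.72 and 11.4 CPM, again with no overlap (1.56, SE 0.26, adjusted p = 6.72e-06). In colon at day 7 Gstm1 rose by less (0.58, SE 0.24, adjusted p = 0.0346), and this call was lost without replicate 1, 2, 4 or 5 (adjusted p 0.0524 to 0.147) and turned to -0.69 under the mitochondrial covariate. Gstm3 fell in colon at day 7 (-1.12, SE 0.15, adjusted p = 1.01e-07), and Gstm6l at day 4 (-0.38, SE 0.12, adjusted p = 0.0111), a call lost without replicate 1 (adjusted p = 0.0959).

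Of the 6 alpha-class members, 1 rose and 4 fell in colon at day 4, and 2 rose and 2 fell at day 7. Gsta1 was the member that rose on both days. It had 7.5, 10.5 and 32.5 CPM at day 4 and 2.2, 10.7 and 16.7 CPM at day 7 in irradiated colon, against 0.362, 1.05 and 2.58 CPM. It rose on both days (3.24, SE 0.52, adjusted p = 6.63e-06, and 2.59, SE 0.51, adjusted p = 4.68e-05, or 3.22 at day 7 without replicate 1), and in jejunum (1.77, SE 0.48, adjusted p = 0.00328, and 1.5, SE 0.48, adjusted p = 0.00743), the jejunum day 7 call being lost without replicate 3 (0.94, adjusted p = 0.0868). Gsta3 fell in colon to 8.68, 19.8 and 30.2 CPM at day 4 and 2.42, 10.8 and 19.3 CPM at day 7, against 31.9, 42.6 and 53.7 CPM. No irradiated library reached the non-irradiated range (-1.07, SE 0.42, adjusted p = 0.0333, and -2.13, SE 0.44, adjusted p = 7.3e-05). Gsta4, which clears the lipid peroxidation product 4-hydroxynonenal, had 4.5, 6.29 and 10.6 CPM at day 4 and 12.8, 35.1 and 45.6 CPM at day 7 in irradiated colon, against 14.7, 19.1 and 22.8 CPM. It was thus lower at day 4 (-1.47, SE 0.34, adjusted p = 0.000634) and higher at day 7 (0.83, SE 0.33, adjusted p = 0.0268), the later call being lost without replicate 1, 4, 5 or 6 (adjusted p 0.0504 to 0.11). In jejunum Gsta4 rose at day 7 (1.2, SE 0.29, adjusted p = 0.000854). Gsta5, abundant in jejunum, was not called there (-0.24, SE 0.41, adjusted p = 0.654, and 0.35, SE 0.4, adjusted p = 0.456). In colon, where it is scarce, Gsta5 fell at day 4 (-1.68, SE 0.57, adjusted p = 0.0152) and lost the call without replicate 1 (adjusted p = 0.0722) or replicate 4 (adjusted p = 0.119).

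**Figure D3:**
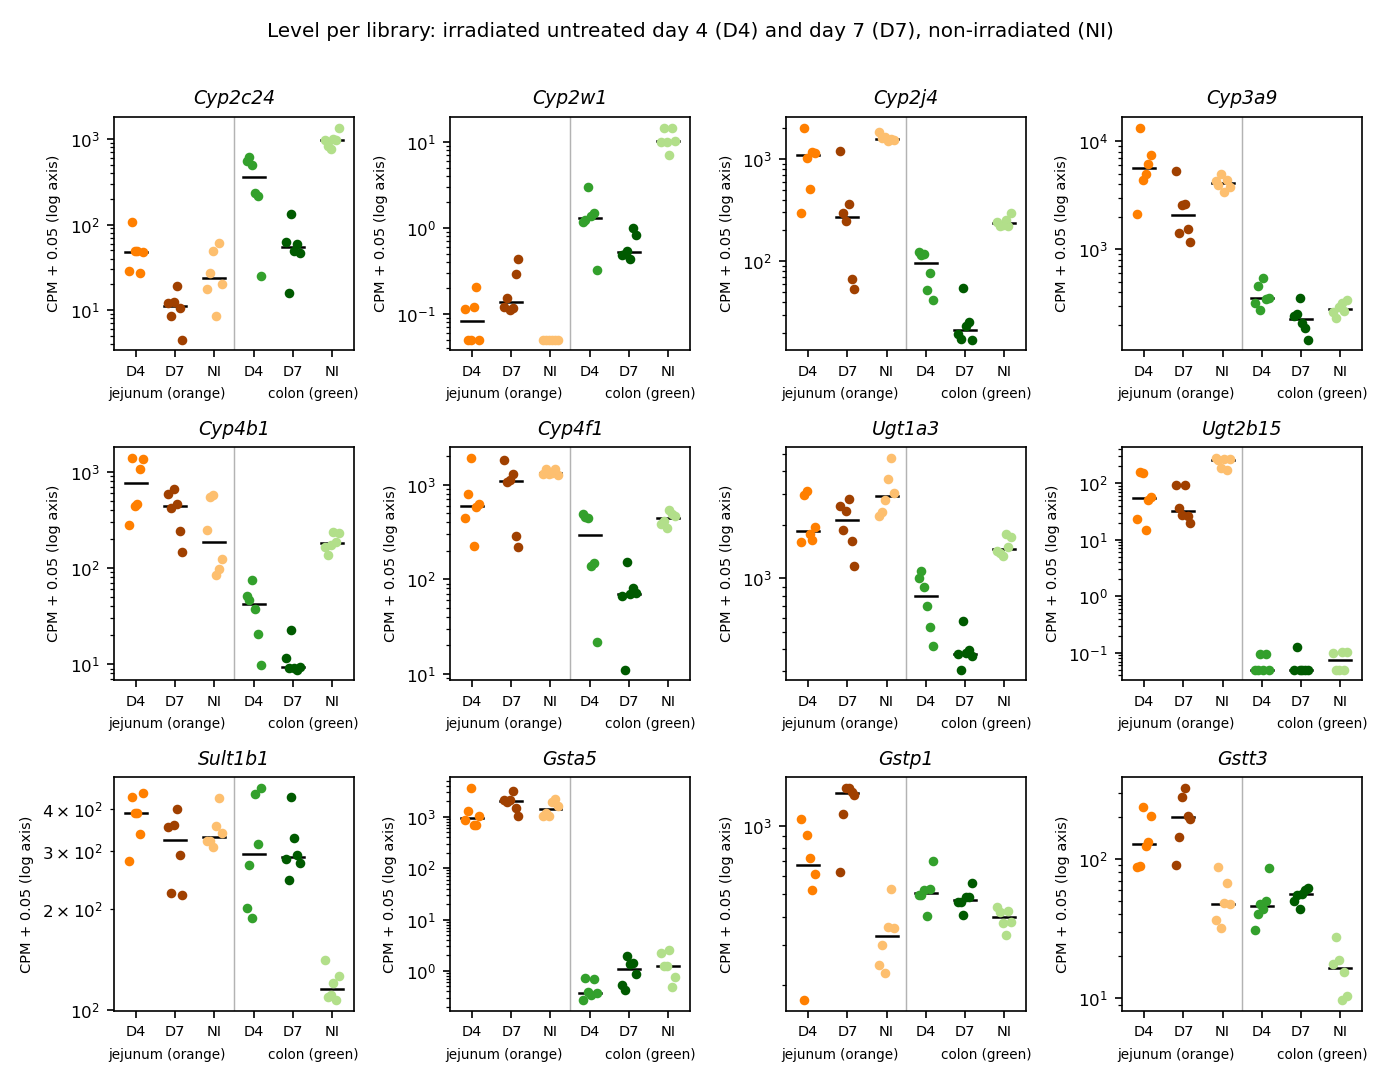
Level of 12 members in each library of irradiated untreated rats at day 4 and day 7 and of non-irradiated rats (x axis), with jejunum in orange and colon in green. The y axis is CPM + 0.05 on a log scale, points are libraries and lines are medians. Cyp2w1 and Cyp4b1 lie far below the non-irradiated level in colon, Gstt3 lies above it in both tissues, and Gstp1 above it in all 6 jejunum libraries at day 7.

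Day 7 was also set directly against day 4. In irradiated untreated colon 23 of 55 members differed, 2 higher and 21 lower at day 7, against a background of 36.5% of all genes (18% higher and 18.5% lower). The 21 comprised 6 Cyp2, 2 Cyp3, 6 Cyp4, 1 Ugt1, 1 Ugt2, 2 Gstm and 3 other Gst members, and they included Ugt2b10 (-3.18, SE 0.71, adjusted p = 0.000623), Cyp2c24 (-2.4, SE 0.78, adjusted p = 0.0151), Cyp2d3 (-2.34, SE 0.62, adjusted p = 0.00318) and Cyp4x1 (-1.85, SE 0.63, adjusted p = 0.0196). Higher at day 7 were Gsta4 (2.3, SE 0.34, adjusted p = 5.33e-06) and Sult4a1 (1.14, SE 0.37, adjusted p = 0.0158). Sult4a1 lost its call without replicate 1, 2 or 3 (adjusted p 0.0756 to 0.0892), Cyp2c24 without replicate 2 (adjusted p = 0.0593) and Cyp4x1 without replicate 1, 2 or 4 (adjusted p 0.0665 to 0.1). The count was 27 in series 1 alone, 5 in series 2 alone, 28 without the day 4 library of replicate 6, which was low in Cyp2c24 and Cyp1a1, and 2 with the mitochondrial covariate. Over all genes those fits called 4070, 3022, 5128 and 575, in that order, against 4862 as reported.

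In jejunum 18 of 58 members differed between the days, 8 higher and 10 lower at day 7 (background 41%, 20.3% higher and 20.7% lower). Higher were Cyp4f40 (1.83, SE 0.43, adjusted p = 0.00106), Gsta3 (1.49, SE 0.48, adjusted p = 0.0139), Gsta4 (1.12, SE 0.29, adjusted p = 0.00311) and Gstm1 (1.11, SE 0.25, adjusted p = 0.000911). Lower were Sult1e1 (-3.14, SE 0.8, adjusted p = 0.00232), Cyp2c24 (-2.21, SE 0.47, adjusted p = 0.00049), Cyp3a62 (-1.51, SE 0.41, adjusted p = 0.00395) and Cyp3a9 (-1.44, SE 0.41, adjusted p = 0.00543). Without replicate 2 the calls of Cyp3a62 (adjusted p = 0.0605) and Cyp3a9 (adjusted p = 0.0734) were lost, and without replicate 6 those of Cyp3a9 (adjusted p = 0.0509) and Sult1e1 (adjusted p = 0.0711). Gsta3 lost its call without replicate 2, 4 or 5 (adjusted p 0.0567 to 0.066). No member was called in series 1 alone and 23 were in series 2 alone, and the count was 10 without replicate 2 and 11 without replicate 6. Over all genes those fits called 166, 5617, 2973 and 2918, against 5128 with all libraries.

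The injected vehicle groups give the same step in other rats, all of library series 3. In colon 12 of 56 members differed, 2 higher and 10 lower at day 7 (background 27.4%, 16% higher and 11.4% lower), with Gsta4 (1.91, SE 0.46, adjusted p = 0.00388) and Sult4a1 (1.26, SE 0.34, adjusted p = 0.00862) higher, and Cyp2d3 (-2.48, SE 0.71, adjusted p = 0.0128) and Cyp2j4 (-1.51, SE 0.43, adjusted p = 0.013) among those lower. Cyp2d3 lost its call without replicate 3, 5 or 6 (adjusted p 0.0603 to 0.0706) and Cyp2j4 without replicate 3 (adjusted p = 0.0638) or 5 (adjusted p = 0.0776). In jejunum 24 of 59 differed, 8 higher and 16 lower (background 50.6%, 25.5% higher and 25.2% lower). Gstm1 was higher at day 7 (0.84, SE 0.2, adjusted p = 0.00213), and Sult1e1 (-4.29, SE 1.03, adjusted p = 0.00194), Cyp1b1 (-4.54, SE 1.23, adjusted p = 0.00464) and Cyp1a1 (-3, SE 0.92, adjusted p = 0.00989) were lower. Cyp1a1 was not called without replicate 1 (-1.85, adjusted p = 0.115). With the mitochondrial covariate 3 members were called in colon and 6 in jejunum. Calls over all genes fell to 1154 and 2597 there, against 3598 and 6168. In colon the mitochondrial share did not overlap between the days (8.48 to 19.6% at day 4 and 4.62 to 8.16% at day 7). Day and share are therefore hard to separate in that fit. The colon count of members was 7 without replicate 3 and 6 without replicate 5, and the jejunum count 10 without replicate 1 and 13 without replicate 5. Over all genes those fits called 1685, 2219, 4043 and 4784.

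Whether colon and jejunum answered radiation differently was tested as an interaction over both tissues. At day 4 the difference was called for 13 of 63 members (background 21.5%), 10 with the jejunum response above that of colon and 3 below (13.5% and 8.06% of all genes). At day 7 it was called for 20 (background 39.4%), 18 above and 2 below (25.3% and 14.1% of all genes), among the 18 being 5 of 6 Gstm members. In library series 1 alone 6 and 17 differences were called, and in series 2 alone 12 and 12. Over all genes they numbered 1605 and 3943 in series 1 alone and 1990 and 3412 in series 2 alone, against 2961 and 5418. Cyp4b1, which fell in colon and rose in jejunum at day 4, differed by 4.17 (SE 0.67, adjusted p = 3.46e-06) at day 4 and by 4.84 (SE 0.67, adjusted p = 3.73e-08) at day 7. Its day 4 difference ranged from 2.14 to 6.49 over 15 alternative fits and lost its call in 1. Ugt2b10 differed by 3.21 at day 4 (SE 0.95, adjusted p = 0.0101; 2.55 with adjusted p = 0.0678 without replicate 4) and by 7.54 at day 7 (SE 0.92, adjusted p = 1.53e-09). Sult1c2 differed by 4.21 (SE 1.2, adjusted p = 0.00793) and 4.6 (SE 1.19, adjusted p = 0.00153). The response of Sult1b1 was smaller in jejunum, by -1.2 (SE 0.26, adjusted p = 0.000426) and -1.45 (SE 0.26, adjusted p = 8.72e-06). At day 7 Gstp1 differed by 1.72 (SE 0.29, adjusted p = 2.76e-06), Ugt1a3 by 1.4 (SE 0.34, adjusted p = 0.000915) and Cyp2c24 by 2.69 (SE 0.92, adjusted p = 0.0152), while for Cyp3a9 no difference was called (-0.39, SE 0.46, adjusted p = 0.525).

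Of the members, 50 were tested in both tissues. At day 4, 10 were called in both, which is 52.6% of the 19 called in jejunum and 43.5% of the 23 called in colon. Over all 12154 genes tested in both tissues, those shares were 56.5% and 52.2%. Of the 10 members, 6 rose in both (Cyp1b1, Gsto2, Gstp1, Gstt3, Gsta1 and Ugt2b7), 3 fell in both (Cyp2d5, Cyp2u1 and Cyp4f40), and Cyp4b1 went opposite ways. At day 7, 21 were called in both, 77.8% of the 27 in jejunum and 58.3% of the 36 in colon, beside 68.6% and 63.3% over all genes. The difference between the members' shares and those of all genes was not tested. In both tissues 6 rose (Gstt3, Gsta1, Gsta4, Gstm1, Sult4a1 and Ugt2b7), 13 fell in both, and Gstm2 and Ugt2b10 went opposite ways. The 13 were Cyp2c24, Cyp2d2, Cyp2d4, Cyp2d5, Cyp2j4, Cyp2t1, Cyp2u1, Cyp3a62, Cyp4f39, Cyp4f6, Cyp4v3, Sult2b1 and Ugt1a3.

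**Figure D4:**
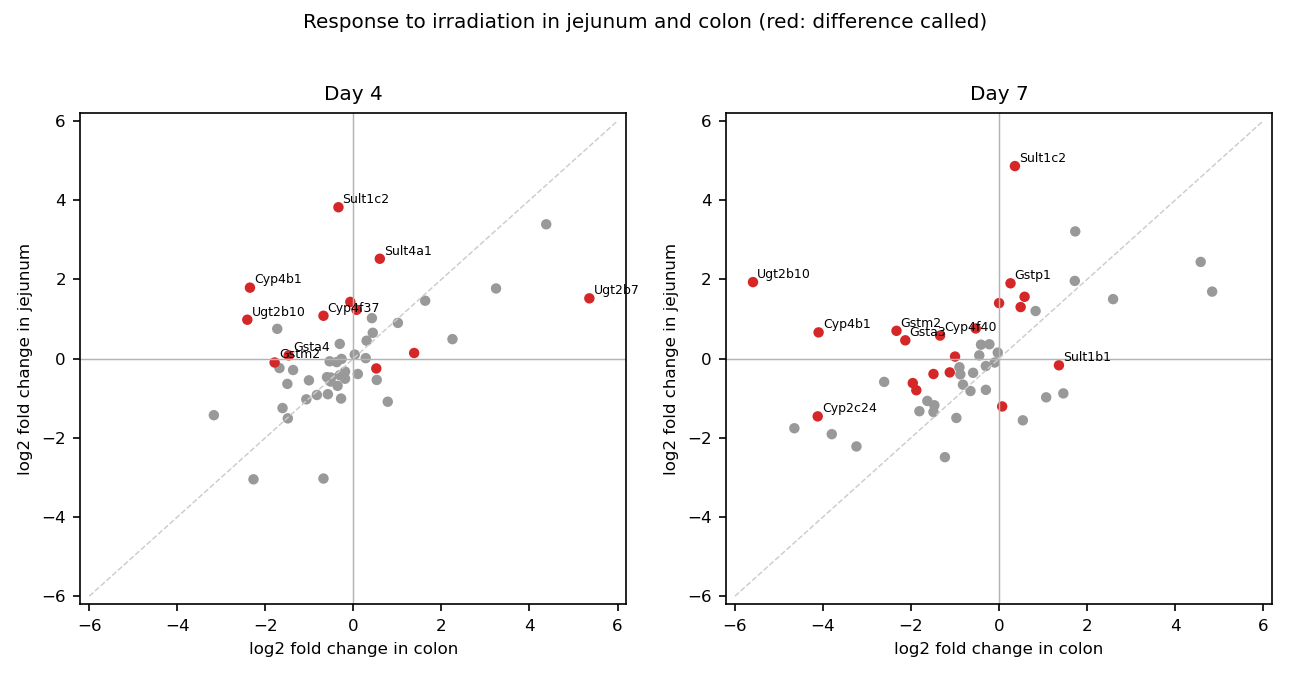
Log2 fold change of irradiated untreated against non-irradiated rats in jejunum (y axis) and colon (x axis) for the 50 members tested in both tissues, at day 4 and day 7. Red points are members whose response differed between the tissues (12 at day 4 and 19 at day 7 of those drawn), with names where the 2 values lie more than 1.5 apart. The dashed line marks equal response. Cyp4b1, Ugt2b10 and Sult1c2 stand furthest above it.

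Genes around the enzymes were counted from fixed lists. Of all genes tested in colon, 24.6% were higher and 22.3% lower at day 4, and 32.9% and 30.8% at day 7. In jejunum those shares were 25% and 18.9% at day 4, and 31.4% and 27.4% at day 7. They are the background for the counts of every list that follows. Whether a list differed from it was not tested. Of 17 regulators, 16 were tested in colon, where 1 rose and 9 fell at day 4 and none rose and 9 fell at day 7. In jejunum 1 of 17 rose and 9 fell at day 4, and 5 rose and 6 fell at day 7. Ppara, the sensor for fatty acids, fell in colon (-1.79, SE 0.37, adjusted p = 0.00021, and -2.58, SE 0.38, adjusted p = 5.22e-07), and rose in jejunum at day 7 (1.24, SE 0.28, adjusted p = 0.000383). Nr1i2, the pregnane X receptor, fell in colon at day 4 (-0.78, SE 0.25, adjusted p = 0.0118) and in jejunum at both days (-1, SE 0.2, adjusted p = 0.000136, and -0.78, SE 0.2, adjusted p = 0.00108). Ahrr, the repressor that the aryl hydrocarbon receptor induces, fell in all 4 comparisons, in colon by more at day 7 (-3.98, SE 0.46, adjusted p = 5.68e-09) than at day 4 (-1.19, SE 0.41, adjusted p = 0.018). Nfe2l2, which drives the antioxidant response element, fell in colon at day 7 (-1.02, SE 0.22, adjusted p = 0.000123) and rose in jejunum at day 7 (0.48, SE 0.14, adjusted p = 0.00512).

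Of 9 cofactor genes tested, 3 rose and 4 fell in colon at day 7, and 6 rose and none fell in jejunum at day 7. The difference between the tissues is not reported here for this list. Ugdh, which makes the glucuronic acid donor, fell in colon (-1.32, SE 0.22, adjusted p = 1.2e-05, and -1.71, SE 0.22, adjusted p = 4.35e-08) and rose in jejunum at day 7 (0.54, SE 0.1, adjusted p = 3.98e-05). Papss2, which makes the sulfate donor, fell in colon at day 7 (-3.79, SE 0.5, adjusted p = 6.66e-08). Slc7a11, the cystine importer that feeds glutathione synthesis, rose in colon (3.67, SE 0.99, adjusted p = 0.0028, and 4.73, SE 1, adjusted p = 0.00011). Of 5 redox partners of the P450s, 1 rose and 2 fell in colon on each day. In jejunum 1 rose and 1 fell at day 4, and none rose and 1 fell at day 7.

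Of the other phase I and II enzymes, 7 of 21 rose and 10 fell in colon at day 4, and 3 rose and 11 fell at day 7, while in jejunum 5 of 24 rose and 8 fell at day 4 and 6 rose and 2 fell at day 7. Aldh1a1, a retinaldehyde dehydrogenase, fell in colon (-2.37, SE 0.68, adjusted p = 0.00458, and -6.66, SE 0.8, adjusted p = 1.1e-08) and rose in jejunum (2.4, SE 0.4, adjusted p = 1.89e-05, and 1.83, SE 0.39, adjusted p = 0.000197). Nqo1, a quinone reductase of the Nfe2l2 programme, rose in jejunum (2.11, SE 0.59, adjusted p = 0.0043, and 3.38, SE 0.62, adjusted p = 2.68e-05). Ephx1, the microsomal epoxide hydrolase, fell in colon (-1.09, SE 0.19, adjusted p = 2.23e-05, and -2.34, SE 0.2, adjusted p = 1.58e-11). Of the drug transporters, 5 of 12 rose and 3 fell in colon at day 4 and 4 rose and 5 fell at day 7, and in jejunum 3 of 13 rose and 2 fell at day 4 and 4 rose and 5 fell at day 7.

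The powder was compared with its oral vehicle at each day. In colon at day 4, 6 of 55 members differed, 4 higher and 2 lower with powder, against a background of 11.8% of all genes (4.89% higher and 6.9% lower). Gstz1 had 9.76, 11.2 and 13.7 CPM with powder, against 5.72, 7.94 and 9.54 CPM with oral vehicle, with no overlap (0.56, SE 0.13, adjusted p = 0.0083). Gsto1 had 235, 303 and 333 CPM with powder, against 130, 205 and 292 CPM with vehicle (0.53, SE 0.14, adjusted p = 0.0112). Gstt2 (0.5, SE 0.14, adjusted p = 0.0166) and Cyp2t1 (0.67, SE 0.2, adjusted p = 0.0281) were also higher. Sult1b1 had 198, 216 and 261 CPM with powder, against 227, 354 and 466 CPM with vehicle (-0.63, SE 0.2, adjusted p = 0.0358), and Gstm1 was lower too (-0.74, SE 0.24, adjusted p = 0.038). In non-irradiated colon the medians were 10.9 CPM for Gstz1, 37.1 CPM for Gstt2, 8.54 CPM for Cyp2t1, 5.63 CPM for Gstm1 and 116 CPM for Sult1b1, nearer to the powder than to the vehicle medians. For Gsto1 the non-irradiated median of 146 CPM was nearer to the vehicle median. Distances from the non-irradiated level were not tested.

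All 6 kept their direction in library series 1 and in series 2 taken alone, and none was called in either. Calls over all genes fell to 3 and 25 there, against 1568 with both series. The count of members was 1 without replicate 1 or 5, 2 without replicate 3, 3 without replicate 4, 4 without replicate 6 and 8 without replicate 2. Over all genes those fits called 622 and 633, 548, 985, 1278 and 1829, in that order. Without replicate 1, 3, 4, 5 or 6 Cyp2t1 lost its call (adjusted p 0.0542 to 0.133), as did Gstm1 without replicate 1, 3, 5 or 6 (adjusted p 0.0799 to 0.133), Sult1b1 without replicate 1, 3, 4 or 5 (adjusted p 0.0664 to 0.137), Gstt2 without replicate 1, 3, 4 or 5 (adjusted p 0.0548 to 0.0846), Gstz1 without replicate 5 (adjusted p = 0.0513) and Gsto1 without replicate 1 (adjusted p = 0.0697). All 4 neutrophil markers were called lower with powder in the same comparison, with a median sum of 4.34 CPM (2.26 to 19) against 27.6 CPM (4.72 to 101) with vehicle. Their part in the 6 values was not tested.

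In the other powder comparisons edgeR called no member: 0 of 55 in colon at day 7 (background 0%), 0 of 58 in jejunum at day 4 (background 0.008%) and 0 of 58 in jejunum at day 7 (background 0.008%). Members with an unadjusted p under 0.05 numbered 2, 4 and 3. DESeq2 called 0, 2 and 0 members, beside 2, 16 and 1 of all genes. The 2 members were the Cyp1 genes in jejunum at day 4, which were singled out after their values were seen. Cyp1a1 had 196, 853 and 1676 CPM with powder, against 30.3, 106 and 435 CPM with oral vehicle. The groups overlapped, with 5 of the 6 powder libraries above all vehicle libraries (2.65, SE 0.73, adjusted p = 0.406 with edgeR, and 2.65 with adjusted p = 0.0369 with DESeq2). Cyp1b1 had 5.69, 12.4 and 33 CPM with powder, against 0.0507, 0.991 and 4.38 CPM with vehicle, with no overlap (3.33, SE 0.86, adjusted p = 0.296 with edgeR, and 3.31 with adjusted p = 0.0342 with DESeq2). In library series 1 alone Cyp1a1 had 2.17 (adjusted p = 0.665), and in series 2 alone 3.58 (adjusted p = 0.0438). Cyp1b1 was called in neither, with 3.45 (adjusted p = 0.665) in series 1 alone and 3.24 (adjusted p = 0.242) in series 2 alone. The other member called in series 2 alone was Gstm3l (0.7, adjusted p = 0.0438). In series 1 alone Gstm3l had 0.39 (adjusted p = 0.665). At day 7 Cyp1a1 had 73.9, 364 and 678 CPM with powder, against 25.4, 80.7 and 360 CPM with vehicle, in the same direction and not called (1.6, SE 0.71, adjusted p = 1).

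Oral vehicle against no treatment gave 0 called members with edgeR at both days and in both tissues (background 0% and 0.00752% in colon, 0% and 0.008% in jejunum), with 0, 4, 2 and 4 members at an unadjusted p under 0.05 and none called by DESeq2. Over all genes DESeq2 called 0 and 2 in colon and 0 and 5 in jejunum at days 4 and 7. Injection against injected vehicle likewise gave 0 called members of 56 in colon and 59 in jejunum (background 0% in all 4), with 1, 5, 5 and 5 at an unadjusted p under 0.05 for colon at days 4 and 7 and jejunum at days 4 and 7. DESeq2 called 1 member there, Cyp2d5 in jejunum at day 7, named after its value was seen. Over all genes DESeq2 called 0 and 0 in colon and 10 and 2 in jejunum at days 4 and 7. DESeq2 gave no adjusted p for 23 of the 59 members in jejunum at day 4, nor for 1 of 56 in colon on each day. Cyp2d5 had 0.134, 0.951 and 1.08 CPM with injection, against 0.532, 4.93 and 13.7 CPM with injected vehicle (-3.07, SE 0.72, adjusted p = 0.998 with edgeR, and -3.08 with adjusted p = 0.0216 with DESeq2). Cyp1a1 with injection had 223, 466 and 2640 CPM at day 4, against 64.5, 359 and 4315 CPM with injected vehicle. At day 7 it had 69.8, 131 and 305 CPM, against 15.3, 104 and 466 CPM, and at both days the vehicle libraries spanned the injection libraries. The powder and injection arms were not tested against each other, since the injected groups are all of library series 3.

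**Figure D5:**
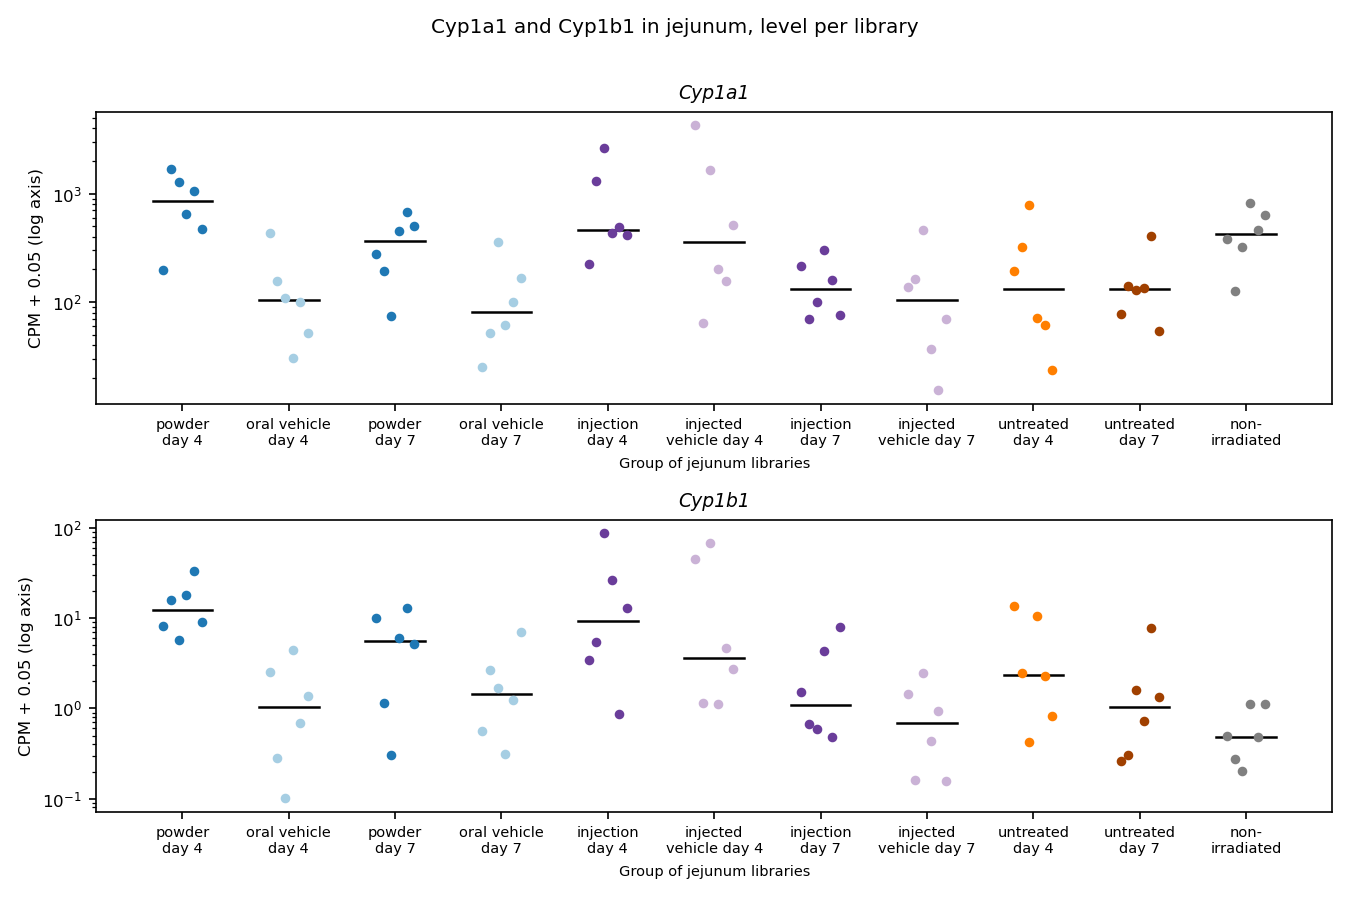
Level of Cyp1a1 and Cyp1b1 (y axes, CPM + 0.05, log scale) in each jejunum library of every group (x axis), with lines at the medians. With powder at day 4 all 6 Cyp1b1 values lie above all 6 oral vehicle values, while injection and injected vehicle overlap at both days.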

How the data were processed

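Bulk RNA-seq of colon and jejunum epithelium was paired-end on DNBSEQ-G400, per the labels' protocols. The deposited tables hold raw counts per gene symbol, with no normalization. The submitters' processing notes name STAR 2.7.10a and mRatBN7.2. Read counter, annotation release and strand setting: not given in the sources used here. All 36 libraries standing in both tables were identical there and used once. No column was of an unknown library.

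Groups came from the labels. Tests were edgeR 4.0.16 quasi-likelihood F tests (R 4.3.3) after filterByExpr filtering and TMM scaling, and adjusted p are Benjamini-Hochberg over all genes tested. Fits held 42 libraries per tissue, or 84 over both tissues, with library series as a term, and 24 injected libraries per tissue. SE is the log2 fold change divided by the root of F. Replicates are biological per the labels. Whether colon and jejunum libraries share rats is not stated. The method was tested on simulated data.

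Members, gene lists, markers and the naming rule were chosen with earlier results of these data known. The rule named a panel of 12 genes, then up to 2 called members with the highest and 2 with the lowest fold change per family, or up to 4 each where comparisons were secondary, at a mean of at least 1 CPM. Alternatives were DESeq2 1.42.0, size factors, no filter, fewer groups, a replicate block (by library number over both tissues), single series, left-out replicates and the mitochondrial share as a covariate. Promoter windows came from RefSeq.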

Additional observations from a re-analysis of the deposited data

Results flagged for a closer look

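Single libraries stood apart from the other 5 of their group for 7 of 96 group values examined, where chance flags about 1 in 20 groups. In irradiated untreated colon at day 4, replicate 6 had 1.39 CPM of Cyp1a1 (others 10.1 to 24.6) and 24.7 CPM of Cyp2c24 (others 213 to 606). At day 7 replicate 3 had 55.4 CPM of Cyp2j4 (others 17.2 to 25.5) and replicate 2 had 11 CPM of Cyp4f1 (others 66.7 to 151). In irradiated untreated jejunum at day 4, replicate 3 had 307 CPM of Gsta3 (others 30.4 to 64.8) and 3622 CPM of Gsta5 (others 684 to 1270). At day 7 replicate 1 had 627 CPM of Gstp1 (others 1124 to 1469).

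Responses to irradiation differed between the tissues by an interaction test (edgeR, adjusted over all genes; log2 response in jejunum minus that in colon). At day 4 the values were 6.1 for Cyp2w1, 4.21 for Sult1c2, 4.17 for Cyp4b1, 3.21 for Ugt2b10, -3.75 for Ugt2b7, -1.2 for Sult1b1 and -0.73 for Gsto1. At day 7 they were 9.05 for Cyp2w1, 7.54 for Ugt2b10, 4.84 for Cyp4b1, 4.6 for Sult1c2, -1.45 for Sult1b1 and -1.21 for Cyp4f5. Cyp2w1 had 0 counts in non-irradiated jejunum, so its fitted values depend on the prior count and are no bound. The Ugt2b7 call was lost without replicate 2, 4, 5 or 6 (adjusted p 0.0749 to 0.129), and the Cyp4f5 call without replicate 1, 3, 4, 5 or 6 (adjusted p 0.0727 to 0.129) and with the mitochondrial covariate (adjusted p = 0.0573).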

How the results depend on the processing

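Counts of called members moved by over 1.5 times under several settings, besides left-out replicates. In series 1 alone they were 15 in colon at day 4, 5 in jejunum at day 4, 10 in jejunum at day 7, 0 for day 7 against day 4 in jejunum, 6 for the day 4 tissue difference and 0 for powder in colon at day 4. In series 2 alone they were 5 for day 7 against day 4 in colon, 12 for the day 7 tissue difference, 0 for powder in colon at day 4 and 2 for powder in jejunum at day 4 (Cyp1a1 and Gstm3l). With the mitochondrial covariate they were 15 in colon at day 4, 3 in colon at day 7, 2 for day 7 against day 4 in colon, and 3 in colon and 6 in jejunum for the injected vehicle's days. With only the groups compared they were 3 for powder in colon at day 4 and 14 for the injected vehicle's days in jejunum. DESeq2 gave 2 for powder in jejunum at day 4 and 1 for injection in jejunum at day 7. Calls over all genes moved as well. In the order above, series 1 alone gave 2115, 1880, 3303, 166, 1605 and 3, against 6242, 5495, 7352, 5128, 2961 and 1568 as reported. Series 2 alone gave 3022, 3412, 25 and 17, against 4862, 5418, 1568 and 1. The mitochondrial covariate gave 2847, 272, 575, 1154 and 2597, against 6242, 8469, 4862, 3598 and 6168. Only the groups compared gave 958 and 4799, against 1568 and 6168. DESeq2 gave 16 and 2, against 1 and 0. The cause was not tested.

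Leaving out each replicate in turn gave 22 to 26 called members in colon at day 4, 35 to 41 in colon at day 7, 23 to 32 and 27 to 36 in jejunum, 17 to 27 (colon) and 10 to 27 (jejunum) between days, 47 to 48 between tissues, 10 to 15 and 16 to 20 for the tissue difference at days 4 and 7, 1 to 8 for powder in colon at day 4, 6 to 14 and 10 to 31 for the injected vehicle's days in colon and jejunum, and 0 to 0 in all other comparisons. Over all genes, in that order, the calls were 4865 to 5861 and 7776 to 8241 in colon, and 4109 to 5681 and 5822 to 7495 in jejunum. Between days they were 3766 to 4905 and 2918 to 6388, and between tissues 9341 to 9584. The tissue difference had 1836 to 2822 and 4152 to 5080, and powder in colon at day 4 had 548 to 1829. The injected vehicle's days had 1685 to 4072 and 4043 to 6884, and all other comparisons 0 to 2.

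Replicate numbers were not taken as pairs, since in no comparison did every same-numbered pair correlate above 0.1. That rule would miss pairing of only some libraries. Colon and jejunum libraries of the same library number correlated at a median of 0.09 (-0.33 to 0.46), with 29 of 66 pairs above 0.1. With a block by library number, 49 members were called between tissues. For the tissue difference at days 4 and 7 it gave 14 and 20, against 13 and 20 as reported. Over all genes the block by library number called 9788, 2561 and 5277, against 9823, 2961 and 5418 as reported. With the replicate block, 26 and 39 members were called in colon at days 4 and 7, 26 and 33 in jejunum, and 5 for powder in colon at day 4. Over all genes, in that order, it called 6151, 8424, 5302, 7198 and 1500. Leaving out the day 4 colon library of replicate 6, chosen after seeing the data, gave 23 members in colon at day 4, against 25 as reported. Over all genes it gave 5224, against 6242.

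Of 155 called named values, DESeq2 kept 154. Series 1 alone kept 79 of 141, series 2 alone 111 of 141 and the mitochondrial covariate 104 of 150, with 3 reversed. Reversed values among all named values, called or not, were as follows. Only Cyp3a62, Gstm1 and Sult1c2a in colon at day 7 were called as reported, and each reversed under the mitochondrial covariate. The other reversed values had not been called. Series 1 alone gave 0.07 for Sult2b1 in colon at day 4, 0.11 for Cyp3a9 in colon at day 7, 0.63 for Cyp1a1 in jejunum at day 4 and -0.04 for Cyp3a62 in jejunum at day 4. Series 2 alone gave -0.34 for Cyp3a62 in colon at day 4, -0.05 for Cyp1a1 in colon at day 7 and 0.17 for Gstp1 between tissues. Cyp1a1 in colon at day 7 was -0.06 without replicate 3. The mitochondrial covariate gave 1.0 for Cyp3a62, -0.16 for Gstp1, -0.69 for Gstm1 and 0.01 for Sult1c2a in colon at day 7, and -0.04 for Cyp3a62 in jejunum at day 4. That last gene and comparison, at 0.01 with all libraries, also gave -0.002 with only the groups compared and -0.32, -0.01 and -0.003 without replicates 2, 5 and 6, within a range of -0.32 to 0.23 over the left-out replicates. The cause was not tested. Depth limits the members near 0 counts, for which ratios with counting intervals are given.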
